A study of Homo sapiens with 3 samples.

Results

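The p53 target genes examined here were CDKN1A, MDM2, PMAIP1, BBC3, BAX, AEN, SESN1, GADD45A, PHLDA3 and FAS. They are a list of symbols, and all 10 were found among the 31113 gene symbols of the 3 count matrices. The cells were of H9, an established human embryonic stem cell line, profiled as single cells by inDrop with the TruDrop protocol, in which a cell's RNA molecules are tagged with a cell barcode and a unique molecular identifier (UMI). The labels name the STEMdiff SMADi Neural Induction Kit, which blocks SMAD signalling to drive stem cells towards neural progenitors, and the stem cell medium mTeSR, and list the kit for all 3 libraries. There was 1 library for each of the labelled days 0, 2 and 6 of neural progenitor cell differentiation; the first was labelled as human embryonic stem cells and the other 2 as differentiated cells or neural progenitors. The titles also carry a letter (A, B or A) whose meaning the labels leave out, no replicate culture is named, and all cells come from this 1 line.

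The transcription factor p53 is held at a low level by MDM2, an E3 ubiquitin ligase that is itself a p53 target, so that the pair forms a negative feedback loop. When p53 is stabilised it can activate genes that arrest the cell cycle, such as CDKN1A and GADD45A, and genes that promote apoptosis, such as PMAIP1, BBC3, BAX and FAS. Human pluripotent stem cells are known for a low threshold to mitochondrial apoptosis and a short G1 phase. Many p53 targets also have other activators, and PMAIP1 can be activated by ATF4 of the integrated stress response.

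The marker content went against the day labels, so the libraries are called by their labels and no course over time was read from them. POU5F1, the pluripotency factor OCT4, was at 2.22, 1229 and 268 counts per 1000000 UMIs (CPM), in label order (day 0, day 2, day 6), and PAX6, a neural progenitor factor, was at 176, 6.64 and 27.9 CPM. Of 10 pluripotent markers 7 were at least 2-fold higher in the labelled day 2 library than in the labelled day 0 one (summed 5084 against 1975 CPM), and TDGF1 had 0 UMIs in the latter. All 8 measured neural progenitor markers were at most 0.5 times as high (summed 88.2 against 728 CPM, with 864 CPM in the labelled day 6 library). Kept cells numbered 2290, 2419 and 4180 with 20626135 to 41268018 UMIs per library. Their median depths were 8770, 3814 and 4429 UMIs, and their median mitochondrial shares 12.1%, 5.26% and 8.27%, in the order of the labels. Pairs of libraries shared 1545 to 2110 cell barcodes, of which 38 to 82 passed the cell filters in both, and 2, 38 and 159 kept cells fell in clusters made mostly of another library. With 1 library per day, the day, the cell content, the depth and the library cannot be told apart, no test between libraries was possible, and all intervals below are 95% intervals that cover counting error only.

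The start-site regions of the members are shown first, because p53 acts through a binding element of 2 adjacent repeats of 10 bases. RefSeq promoter windows (GRCh38.p14, 250 bases before to 50 after a start site) were given for 8 of the 10 members, in 15 windows; GADD45A and PHLDA3 had no entry. The windows were searched for 2 adjacent p53 repeats with at most 3 mismatches in 20 bases, keeping the central C and G of each repeat. The pattern reads the same on both strands, so the search covered both. Such a pair was present at 5 members, in 6 of the 15 windows, where overlapping windows of MDM2 held the same element. Of the 27305 genes with a window 1.37% had one, as did 1.12% of their 35116 windows. The members were listed as p53 targets, so this difference is not a result of these data. The 5 elements are printed 5' to 3' on the strand of the gene, with the 4 central bases of each repeat in capitals.
MDM2, chr12:68808923-68808942: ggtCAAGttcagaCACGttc
PMAIP1, chr18:59899811-59899830: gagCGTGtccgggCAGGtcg
AEN, chr15:88621306-88621325: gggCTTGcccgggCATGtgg
SESN1, chr6:109009018-109009037: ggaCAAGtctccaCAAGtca
FAS, chr10:88991309-88991328: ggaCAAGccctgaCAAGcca
The elements of MDM2, AEN and FAS had 2 mismatches, a limit that 0.359% of all genes met, and those of PMAIP1 and SESN1 had 3. SESN1 lies on the minus strand and the other 4 on the plus strand. The windows of CDKN1A, BBC3 and BAX held no match. The stretch TGATGNAA, an element that ATF4 can bind with C/EBP factors, was in no member's window on either strand (3.62% of all windows held it), and neither was TGACGTNA, a cyclic AMP response element (3.01%). A match is a likeness in letters, and a missing match refers to these letters in these windows only.

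The whole windows are given for CDKN1A and PMAIP1, the pair whose levels differed most between libraries, with the repeat pair of PMAIP1 in capitals. Both genes lie on the plus strand.
CDKN1A, chr6:36678464-36678763: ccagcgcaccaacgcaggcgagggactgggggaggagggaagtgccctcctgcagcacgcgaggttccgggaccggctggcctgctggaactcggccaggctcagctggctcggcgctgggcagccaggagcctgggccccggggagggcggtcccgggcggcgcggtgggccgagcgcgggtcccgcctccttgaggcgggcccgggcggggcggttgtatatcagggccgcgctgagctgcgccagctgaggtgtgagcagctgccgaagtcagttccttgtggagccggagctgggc
PMAIP1, chr18:59899746-59900045: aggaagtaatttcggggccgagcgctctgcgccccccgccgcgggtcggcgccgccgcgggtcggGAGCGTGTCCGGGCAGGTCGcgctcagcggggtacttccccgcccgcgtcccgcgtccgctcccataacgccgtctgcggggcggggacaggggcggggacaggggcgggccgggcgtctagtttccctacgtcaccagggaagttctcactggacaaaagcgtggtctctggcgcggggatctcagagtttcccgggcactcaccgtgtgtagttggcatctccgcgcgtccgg
The first base of the PMAIP1 pair is at position -185 from the start site. In the GENCODE release 29 annotation CDKN1A spans chromosome 6 from 36676460 to 36687339, so that this window lies inside its longest gene model, and PMAIP1 spans chromosome 18 from 59899948 to 59904306. On the same build, MDM2 lies on chromosome 12 (68808176 to 68850686), BBC3 and BAX on chromosome 19 (47220822 to 47232766 and 48954815 to 48961798), AEN on chromosome 15 (88621296 to 88632282) and FAS on chromosome 10 (88990582 to 89015785). SESN1 lies on chromosome 6 (108986437 to 109094819), and GADD45A and PHLDA3 on chromosome 1 (67685061 to 67688338 and 201464383 to 201469237).

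Across the libraries, 2 members carried most of the difference, in opposite directions. CDKN1A was high in the labelled day 0 library and PMAIP1 in the labelled day 2 one, GADD45A followed CDKN1A to a smaller extent, and MDM2, BBC3, BAX and SESN1 stayed within 1.26-fold in every comparison over all kept cells. Genes were counted as measured in a comparison when at least 1 of the 2 libraries had 10 CPM. Of 9 measured members, 1 reached 2-fold (PMAIP1) and 2 were at most 0.5 times as high (CDKN1A and GADD45A) for labelled day 2 over day 0. Over all 10160 measured genes the shares were 10.1% and 10.2%. In labelled day 6 against day 2, 0 of 8 members reached 2-fold (8.3% of all genes) and 2 were at most 0.5 times as high (PMAIP1 and PHLDA3; 6.32%). In labelled day 6 against day 0 the counts were 0 of 7 (9.94%) and 2, again CDKN1A and GADD45A (6.09%). The median log2 ratio of the measured members was -0.07, -0.28 and -0.12 in these comparisons, beside 0.01, 0.12 and 0.11 for all measured genes. FAS stayed below 10 CPM in all 3 libraries and was measured in none of the comparisons.

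**Figure D1:**
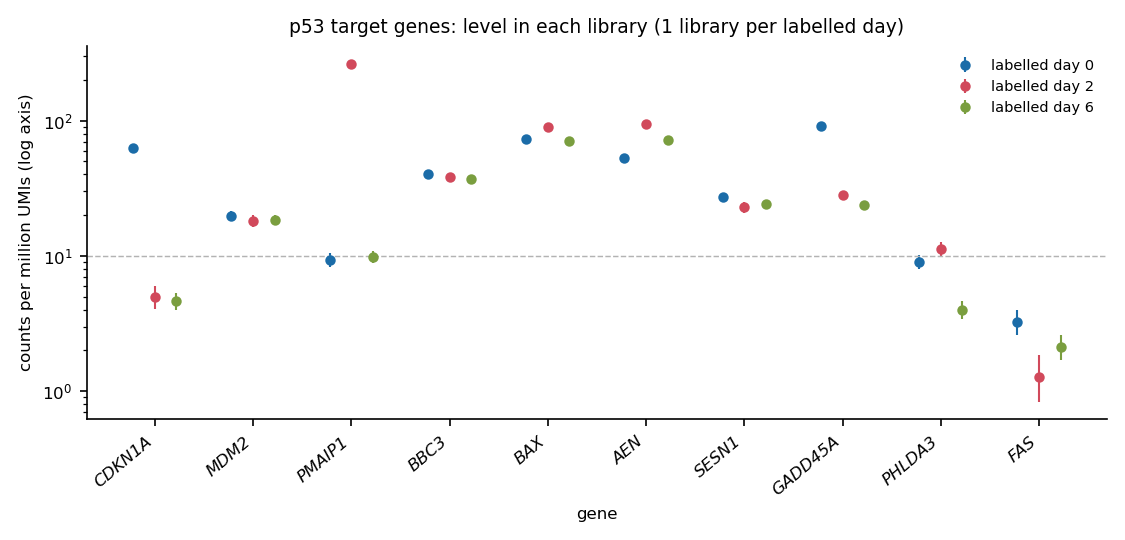
Level of each p53 target gene in the 3 libraries, as counts per 1000000 UMIs of kept cells on a log axis, with 95% Poisson intervals that cover counting error only. The dashed line marks 10 CPM. CDKN1A and GADD45A are highest in the labelled day 0 library and PMAIP1 in the labelled day 2 one, while the points of MDM2 and BBC3 lie close together.

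CDKN1A encodes p21, the inhibitor of cyclin-dependent kinases through which p53 arrests the cell cycle in G1. It had 1766, 102 and 191 UMIs in label order, or 62.3 (59.4 to 65.3), 4.95 (4.03 to 6.00) and 4.63 CPM (3.995 to 5.33). The labelled day 0 library stood far above the other 2, whose intervals overlapped. CDKN1A was 12.6-fold higher (10.3 to 15.5) in the labelled day 0 library than in the labelled day 2 one and 13.5-fold higher (11.6 to 15.7) than in the labelled day 6 one. The ratio was the 55th lowest of 10160 genes for labelled day 2 over day 0 and the 19th lowest of 10078 for labelled day 6 over day 0. Of the 191 UMIs of the labelled day 6 library, 19 came from the 159 cells that clustered with another library, where the level was 14.6 CPM. Without such cells labelled day 6 over day 0 was 0.0691 in place of 0.0743. The ratio of labelled day 2 to day 0, 0.0794 over all kept cells, was 0.0603 in cells of at least 5% mitochondrial UMIs, 0.123 with a mitochondrial limit of 10% and 0.124 in cells of 3000 to 8000 UMIs, so CDKN1A was far lower in the labelled day 2 library in each of these, by a fold that depended on the cells taken.

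GADD45A, a stress protein that binds cell cycle regulators, has also been linked to active DNA demethylation. It was at 91.8 (88.3 to 95.4), 28.0 (25.8 to 30.4) and 23.9 CPM (22.5 to 25.5). The labelled day 0 library was 3.27-fold higher (2.99 to 3.59) than the labelled day 2 one and 3.83-fold higher (3.56 to 4.13) than the labelled day 6 one. The remaining comparison, labelled day 6 over day 2, gave 0.854 (0.770 to 0.948). Its family did not share this order: GADD45B was at 2.61, 11.5 and 1.07 CPM and GADD45G at 1.76, 15.6 and 7.25 CPM, both highest in the labelled day 2 library.

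Other inhibitors of cyclin-dependent kinases were set beside CDKN1A. Of 7 listed, 3 were measured in labelled day 2 against day 0. There 0 reached 2-fold (10.1% of all genes did) and 1 was at most 0.5 times as high (10.2% of all genes). The latter was CDKN1C (p57), at 141, 43.1 and 99.8 CPM. With 3 genes measured, no excess over all genes was read. CDKN1B (p27) was at 34.3, 20.9 and 23.6 CPM. CDKN2A, CDKN2B and CDKN2C were each below 1 CPM in all 3 libraries. CDKN3, a phosphatase whose transcript peaks late in the cell cycle, was at 56.8, 55.8 and 22.8 CPM.

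MDM2, the ligase that closes the feedback loop on p53, was nearly level, at 19.8 (18.2 to 21.5), 18.1 (16.3 to 20.1) and 18.5 CPM (17.2 to 19.9). All 3 intervals overlapped. The ratio of labelled day 2 to day 0 was 0.916 (0.802 to 1.05), and that of labelled day 6 to day 2 was 1.02 (0.902 to 1.16). Over all kept cells, a 12.6-fold difference in CDKN1A thus stood beside an MDM2 interval that included 1. Other choices of cells and scaling put the MDM2 ratio of labelled day 2 to day 0 between 0.706 and 0.931, always below 1. The lowest value came from cells of 3000 to 8000 UMIs. A gene named CPM lies on the opposite strand of the MDM2 locus, with a level of 1.62 to 3.01 counts per 1000000, and the strand setting of the authors' counting is not given in the sources used here. MDM4, the partner of MDM2 that also restrains p53, was at 70.1, 52.99 and 59.8 CPM. Of 22 listed regulators of p53, 17 were measured in labelled day 2 against day 0. There 3 exceeded 2-fold (10.1% of all genes did) and 0 were at most 0.5 times as high (10.2% of all genes). The 3 were led by PPP1R13L (iASPP, an inhibitor of p53) at 16.9 against 6.49 CPM.

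PMAIP1 encodes NOXA, a BH3-only protein that binds the survival factor MCL1. It had 266, 5413 and 406 UMIs, or 9.39 (8.29 to 10.6), 262 (255 to 270.0) and 9.84 CPM (8.90 to 10.8). The labelled day 2 library stood alone, and the other 2 differed by 1.05-fold with an interval that included 1 (0.896 to 1.23). PMAIP1 was 28.0-fold higher (24.7 to 31.7) in the labelled day 2 library than in the labelled day 0 one and 26.7-fold higher (24.1 to 29.6) than in the labelled day 6 one. Of 10178 measured genes it had the 20th lowest ratio for labelled day 6 over day 2. The 38 cells of the labelled day 2 library that clustered with another library held 4 PMAIP1 UMIs, at 18.9 CPM, against the level of 262 CPM for that library as a whole. By mitochondrial share the level was 249 CPM in cells under 5%, 267 CPM in the other kept cells and 150.1 CPM in the barcodes over 25%, which were not kept. The totals included mitochondrial UMIs, so a high mitochondrial share by itself lowers such a level. In the labelled day 6 library it was 14.2 CPM in cells under 5% and 9.13 CPM in the other kept cells.

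The ATF4 list moved with PMAIP1 across the libraries. Of its 12 genes 11 were measured in labelled day 2 against day 0, of which 7 exceeded 2-fold and 0 lay at or below 0.5 (10.1% and 10.2% of all genes), with a median log2 ratio of 1.87. Its genes summed to 799, 1639 and 907 CPM in the order of the labels. CHAC1, an enzyme that degrades glutathione and a marker of ATF4 activity, was at 3.25, 72.5 and 5.02 CPM, a 22.3-fold difference (18.1 to 27.9) between the first 2. DDIT3 (CHOP) was at 1.62, 11.5 and 3.15 CPM and ATF4 at 157, 341 and 175 CPM. The part of this response in the PMAIP1 level was not tested.

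BBC3 encodes PUMA, the other BH3-only protein among the members, and it showed none of the PMAIP1 pattern. Its levels were 40.5 (38.2 to 42.9), 38.6 (36.0 to 41.4) and 37.2 CPM (35.3 to 39.1), with overlapping intervals. BAX, which forms pores in the outer mitochondrial membrane, was at 73.1 (70.0 to 76.3), 89.1 (85.1 to 93.3) and 71.0 CPM (68.4 to 73.6). It was 1.22-fold higher (1.14 to 1.30) in the labelled day 2 library than in the labelled day 0 one, an interval that left out 1 but a difference far below 2-fold. BAX was higher in cells under 5% mitochondrial UMIs than in the other kept cells of all 3 libraries, at 119 against 69.97 CPM, 137 against 73.3 CPM and 92.2 against 67.5 CPM in label order. BBC3 was at 50.1 against 34.8 CPM in the labelled day 2 library, and its ratio interval included 1 in the other 2. On average the cells under 5% were also shallower in every library. In the labelled day 2 one, 1185 such cells held 5150049 UMIs and the other 1234 held 15476086. The part of depth in the splits of any member by mitochondrial share was not tested. The BBC3 ratio of labelled day 2 to day 0, 0.954 (0.870 to 1.04), had no stable direction, since other choices of cells put it between 0.870 and 1.30.

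FAS, a death receptor at the cell surface, was the least abundant member in UMIs, with 92, 26 and 87. These gave 3.25 (2.62 to 3.98), 1.26 (0.823 to 1.85) and 2.11 CPM (1.69 to 2.60). The level was lowest in the labelled day 2 library, whose interval overlapped that of labelled day 6. ACTA2 on the opposite strand overlaps FAS and had 0.291 to 0.882 CPM. Its ligand FASLG had 2, 0 and 0 UMIs. Of the 13 genes of the death receptor list 6 were measured, and CASP9, the initiator caspase of the mitochondrial pathway, was at 9.03, 24.6 and 18.3 CPM.

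Other members of the BCL2 family were compared with the apoptotic members. Of 14 listed, 8 were measured in labelled day 2 against day 0, where 1 exceeded 2-fold and 2 lay at or below 0.5, on so few genes close to the 10.1% and 10.2% of all genes. The survival gene BCL2 was at 17.1, 3.98 and 6.25 CPM, highest in the library with the highest CDKN1A. The BH3-only gene BCL2L11 (BIM) was at 57.3, 22.9 and 39.2 CPM, and the effector relative BOK was at 2.51, 10.1 and 5.94 CPM. HRK and BMF, also BH3-only genes, were highest in the labelled day 6 library, at 1.45, 6.98 and 11.3 CPM and at 2.33, 7.90 and 14.8 CPM. MCL1, which NOXA binds, was at 99.8, 174 and 167 CPM, so unlike PMAIP1 it was nearly level between labelled days 2 and 6.

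AEN, a nuclease that degrades DNA and RNA in p53-dependent apoptosis, came next in size of difference on the side of PMAIP1. It was at 53.4 (50.8 to 56.2), 94.6 (90.4 to 98.9) and 72.3 CPM (69.7 to 74.9), with no overlap between any pair of intervals. The ratio of labelled day 2 to day 0 was 1.77 (1.65 to 1.89). In cells under 5% mitochondrial UMIs against the other kept cells it was at 86.3 against 51.1 CPM, 137 against 80.4 CPM and 92.0 against 69.1 CPM in label order, higher in the former in all 3 libraries.

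SESN1, a sestrin that restrains mTORC1, was at 27.2 (25.3 to 29.2), 22.9 (20.9 to 25.04) and 24.3 CPM (22.8 to 25.8), with ratios between 0.842 and 1.06. Among its relatives SESN2, which ATF4 also activates, was highest in the labelled day 2 library (27.3, 49.2 and 20.5 CPM), and SESN3 was lowest there (76.2, 24.9 and 76.4 CPM). PHLDA3, a pleckstrin homology protein that inhibits AKT, was at 9.03 (7.96 to 10.2), 11.2 (9.80 to 12.7) and 3.97 CPM (3.39 to 4.63). It was the member that set the labelled day 6 library apart, at 0.355 times (0.289 to 0.435) the level of labelled day 2. Its level in the labelled day 2 library was 18.6 CPM in cells under 5% mitochondrial UMIs and 8.72 CPM in the others, and against labelled day 0 it was higher over all kept cells (1.24, 1.03 to 1.49) and lower in the latter cells alone (0.956).

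**Figure D2:**
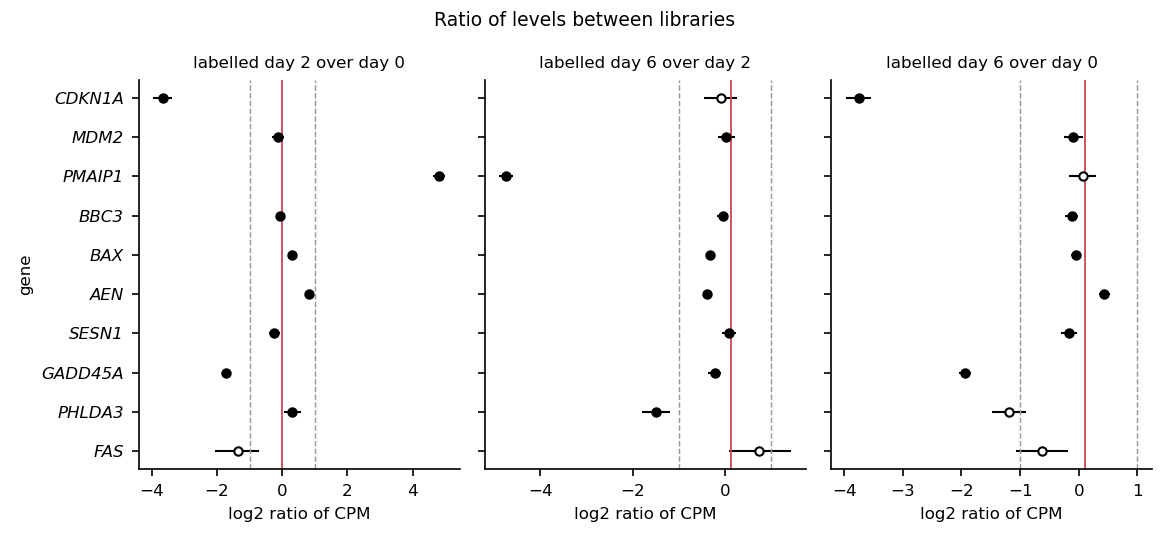
Ratio of CPM between libraries for each p53 target gene on a log2 scale, with 95% intervals that cover counting error only. Dashed lines mark 2-fold in either direction, the red line marks the median of all measured genes, and open circles are genes below 10 CPM in both libraries. CDKN1A and PMAIP1 point in opposite directions in the left panel, where GADD45A is the only other point outside the dashed lines with 10 CPM in a library.

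The direct contrast of CDKN1A with PMAIP1 does not depend on library totals, since the totals cancel in the ratio of the genes. CDKN1A made up 86.9% (85.4 to 88.3, exact Clopper-Pearson interval) of the UMIs of both genes in the labelled day 0 library, 1.85% (1.51 to 2.24) in the labelled day 2 one and 31.99% (28.3 to 35.9) in the labelled day 6 one. Between the first 2 libraries the ratio of PMAIP1 to CDKN1A differed 352-fold (277 to 449). The ratio of CDKN1A to PMAIP1 was 24.97-fold higher (19.1 to 32.7) in the labelled day 6 library than in the labelled day 2 one and 14.1-fold lower (11.3 to 17.6) than in the labelled day 0 one. Thus the labelled day 6 library combined the low CDKN1A of labelled day 2 with the low PMAIP1 of labelled day 0. As CDKN1A to PMAIP1, labelled day 2 over day 0, this ratio was 0.00284, and other choices of cells gave 0.00209 to 0.00540. All 10 members summed to 389.7, 571 and 268 CPM. PMAIP1 made up 45.9% of the sum in the labelled day 2 library and CDKN1A 15.99% in the labelled day 0 one. Without these 2 genes the other 8 summed to 318, 304 and 253 CPM, which is a far narrower range. UMI levels were not divided by gene length, and capture can differ between genes, so these shares are compared between libraries and not read as an order of genes.

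The share of cells with a UMI followed the levels. CDKN1A was detected in 474 of 2290 kept cells of the labelled day 0 library (20.7%, 19.1 to 22.4), in 3.43% (2.74 to 4.24) of those labelled day 2 and in 3.44% (2.91 to 4.04) of those labelled day 6. With every kept cell thinned to 1000 UMIs (all were deep enough), the shares were 5.07% (4.20 to 6.04), 0.785% (0.474 to 1.22) and 0.455% (0.274 to 0.709). For PMAIP1 they were 9.13%, 56.1% (54.1 to 58.1) and 8.28% unthinned, and 0.961%, 20.4% (18.8 to 22.1) and 1.03% thinned. As a background, the highest share was taken among 10 genes of tissues absent from the culture, such as MYH6 of heart muscle. These shares were 0.0873%, 0.0827% and 0.0718% thinned, or 1.57%, 0.785% and 0.694% unthinned. All shares of CDKN1A and PMAIP1 lay above these. FAS, at 0.165% of thinned cells (0.0451 to 0.423) in the labelled day 2 library, could not be told apart from that background. Such genes cannot show free RNA of genes that the cultured cells express. In barcodes under 1000 UMIs or 500 genes, CDKN1A was at 83.7, 7.73 and 3.16 CPM in label order. PMAIP1 was at 10.5, 181 and 7.48 CPM in them. The part of free RNA in the shares of both genes was not tested.

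The UMIs of both genes were counted per cell. In the labelled day 0 library, 197 cells had 1 CDKN1A UMI, 89 had 2 and 188 had 3 or more, with up to 31 in a cell. The 1% of cells with the most UMIs of the gene held 24.97% of all its UMIs. For PMAIP1 in the labelled day 2 library, 499 cells had 1 UMI, 274 had 2 and 585 had 3 or more, with up to 44 in a cell, and the top 1% of cells held 12.2%. In the labelled day 0 library the top 1% of cells held 8.74% of the 2072 UMIs of BAX and 24.6% of the 256 of PHLDA3. This share tends to be higher for a gene with few UMIs. CDKN1A, with 1766 UMIs, was thus more concentrated than BAX, which is close to it in level. In the labelled day 2 library they held 10.7% for BAX, 12.6% for BBC3 and 23.0% for MDM2. These genes had 1838, 796 and 374 UMIs there, far fewer than the 5413 of PMAIP1. No order of concentration was therefore read between PMAIP1 and these genes. In the libraries where either gene was low, cells with 3 or more of its UMIs were few: 4 and 8 cells for CDKN1A in those labelled day 2 and day 6, and 9 in each of those labelled day 0 and day 6 for PMAIP1.

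**Figure D3:**
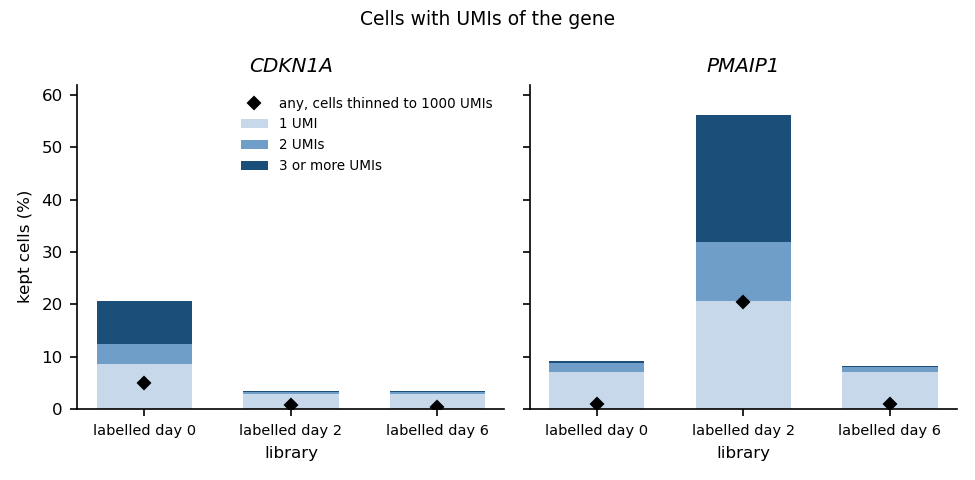
Percent of kept cells with 1, 2 or at least 3 UMIs of CDKN1A (left) and PMAIP1 (right) in each library; diamonds give the percent with any UMI after thinning every cell to 1000 UMIs. The bar of labelled day 0 is the tallest for CDKN1A at 20.7% and that of labelled day 2 for PMAIP1 at 56.1%.

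The remaining members were detected in a similar share of thinned cells in all libraries or followed their CPM. BAX was in 7.51%, 9.59% and 7.15% of thinned cells and AEN in 5.81%, 9.59% and 7.32%. BBC3 was in 3.89%, 4.09% and 3.56%, MDM2 in 2.01%, 1.49% and 1.39%, and SESN1 in 2.79%, 2.52% and 1.75%. GADD45A stood out in the labelled day 0 library, with 8.60% against 2.81% and 2.73%. PHLDA3 was in 0.786%, 1.41% and 0.455%. None of the 10 members was seen in 70.2%, 57.6% and 76.9% of thinned cells, and 3 or more members were seen together in 1.40%, 1.53% and 0.263%, so at equal depth most cells showed at most 1 of these genes.

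Within the labelled day 0 library, the p53 target genes were higher together in the same cells. The cells were divided by whether a CDKN1A UMI was seen after thinning, and levels were then taken from all UMIs of the 116 cells with one and the 2174 without. All 9 other members were higher in the cells with CDKN1A, and for 8 of them the interval of the ratio left out 1. PHLDA3 was at 26.4 against 7.97 CPM (3.31-fold, 2.33 to 4.61), BBC3 at 109.9 against 36.2 CPM (3.03-fold, 2.57 to 3.56) and GADD45A at 210.0 against 84.6 CPM (2.48-fold, 2.21 to 2.78). PMAIP1 was among them, at 20.9 against 8.68 CPM (2.40-fold, 1.63 to 3.46). MDM2 had the smallest ratio, 1.36 (0.974 to 1.86), at 26.4 against 19.4 CPM. Of the 6 members with 10 CPM in this library, 4 were at least 2-fold higher, beside 0.372% of the 9139 genes of that level. Of the 26 further p53 targets of that level 12 were, among them PLK2 (3.42-fold), PTCHD4 (3.29-fold) and BTG2 (2.63-fold), and 0 were at most 0.5 times as high (0.46% of all genes). Both groups of cells had close depths and mitochondrial shares, with medians of 9593.5 against 8755.5 UMIs and 12.1% in each. Neural progenitor markers moved with the split: 2 of 8 measured, HES5 and SOX21, were at most 0.5 times as high in the cells with CDKN1A, and the 10 markers summed to 570.5 against 737 CPM. Their part in the result was not tested. As the cells are of 1 library and are not replicates, this describes these cells only.

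**Figure D4:**
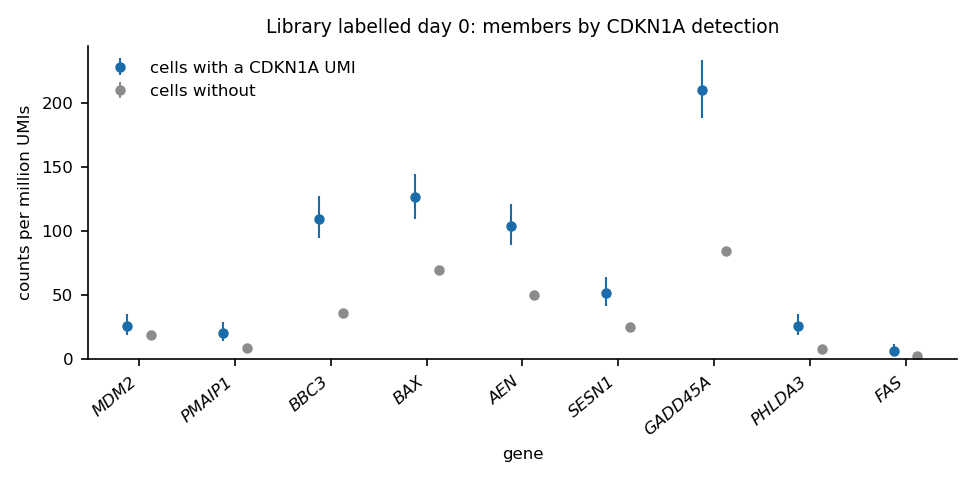
Level of the other 9 p53 target genes in the labelled day 0 library, in counts per 1000000 UMIs, in the 116 cells with a CDKN1A UMI after thinning (blue) and the 2174 cells without (grey), with 95% Poisson intervals that cover counting error only. The blue point is the higher of the pair for all 9 genes, and MDM2 is the one whose ratio interval includes 1.

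The same division was made by PMAIP1 in the labelled day 2 library, where it separated the cells less well: 864 of the 1925 cells without a PMAIP1 UMI after thinning (44.9%) had one before, against 358 of 2174 (16.5%) for CDKN1A above. Between the 494 cells with and the 1925 cells without a PMAIP1 UMI after thinning, MDM2 was at 23.1 against 16.7 CPM (1.38-fold, 1.09 to 1.74). The ratios of the other 8 members lay between 0.636 and 1.17, and their intervals included 1. CDKN1A was at 4.58 against 5.05 CPM. Of all 9336 genes with 10 CPM in this library 0% reached 2-fold and 0.0107% lay at or below 0.5 times in these cells, and the 11 measured genes of the ATF4 list had a median log2 ratio of 0.08. The cells with PMAIP1 were somewhat deeper, at a median of 4498 against 3644 UMIs. Whether the divisions of the 2 libraries differ was not tested, and with groups so mixed a small ratio does not show that the genes vary apart. In unthinned cells CDKN1A and PMAIP1 were seen together in 96, 65 and 40 cells, where the product of their shares gives 43.3, 46.6 and 11.9; deeper cells are more likely to show both. After thinning the counts were 4, 1 and 0 beside products of 1.11, 3.88 and 0.195, too few to read.

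Cell cycle stage was looked at through 33 genes of G2 and mitosis. In the labelled day 0 library, CDKN1A was at 44.1 CPM (34.5 to 55.4) in the 146 cells with at least 1% of UMIs from these genes and at 63.4 CPM (60.5 to 66.5) in the others. GADD45A was at 65.2 against 93.4 CPM and PMAIP1 at 3.02 against 9.78 CPM, on 5 UMIs in the former. The ratio was 0.695 (0.542 to 0.878) for CDKN1A and 0.309 (0.0994 to 0.730) for PMAIP1, whereas the intervals of BBC3 (1.02, 0.783 to 1.30) and BAX (1.16, 0.968 to 1.38) included 1. The cut is a range on a score, and 255 cells of this library lay between 0.8% and 1.2%. Cells with at least 1% were 64 in the labelled day 2 library and 32 in the labelled day 6 one. The former held 0 CDKN1A UMIs, with a ratio interval of 0 to 2.43 that gave no direction. In the labelled day 6 library CDKN1A was at 8.54 times the level of the other cells (1.75 to 25.4) on 3 UMIs. FAS was at 12.6 times (1.501 to 46.9) on 2 UMIs. These intervals treat UMIs as independent, yet CDKN1A reached 13 UMIs in a cell of this library. The top 1% of cells held 46.6% of its UMIs there. No direction was therefore read for the labelled day 6 library.

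Of 36 further p53 targets, 27 were measured in labelled day 2 against day 0. There 1 exceeded 2-fold (10.1% of all genes did) and 8 were at most 0.5 times as high (10.2% of all genes), with a median log2 ratio of -0.45. In labelled day 6 against day 0 the counts were 2 and 7 of 27 (9.94% and 6.09% of all genes) with a median of -0.43, and in labelled day 6 against day 2 they were 4 and 2 of 20 (8.3% and 6.32%) with a median of -0.05. Both comparisons with the labelled day 0 library share it, so their values are not independent.

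Individual further targets fell into several orders. PTCHD4, a patched-domain protein, was at 42.2, 2.38 and 2.25 CPM, and BTG2, an antiproliferative cofactor, at 27.8, 5.14 and 3.34 CPM, so both followed CDKN1A. ZMAT3, a zinc finger protein that binds RNA, was at 48.0, 15.999 and 14.3 CPM and the kinase gene PLK2 at 11.0, 5.43 and 1.02 CPM. TRIM22 had the opposite order, at 3.88, 10.6 and 23.9 CPM. TP53I3, a quinone oxidoreductase, was highest in the labelled day 6 library (15.8, 19.4 and 67.2 CPM), as was TP53INP1 (12.5, 4.95 and 21.7 CPM). RRM2B, the ribonucleotide reductase subunit induced by p53, was highest in the labelled day 2 one (23.0, 38.1 and 15.2 CPM). The p53 targets therefore had no single order over the 3 libraries.

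**Figure D5:**
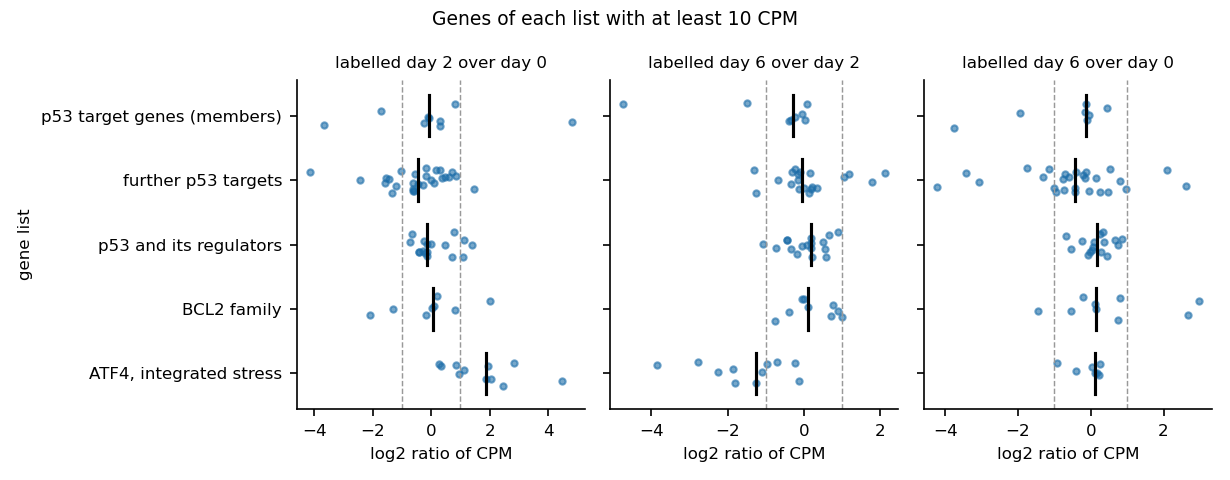
Log2 ratio of CPM between libraries for the measured genes of 5 lists; each point is a gene, the black bar is the median of the list and dashed lines mark 2-fold. The ATF4 list is shifted to higher values in the left panel (median 1.87) and to lower values in the middle panel (median -1.26), whereas the medians of the p53 target genes stay between -0.28 and -0.07.

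The genes whose pattern over the 3 libraries was nearest to that of CDKN1A, by distance of centred log2(CPM + 1) values among 10573 genes, were GSC, FAM69C, PTCHD4, ZNF385B and RP11-1114A5.4, at distances of 0.13 to 0.32. PTCHD4 is also in the list of further p53 targets. ZNF385B was the most abundant of them, at 160.9, 10.3 and 10.9 CPM. Nearest to PMAIP1 were FOXD3, AK4, ETV4, AC104304.4 and NANOG, at distances of 0.11 to 0.56. NANOG, a pluripotency factor, was at 2.19, 66.6 and 0.945 CPM, FOXD3 at 27.3 CPM in the labelled day 2 library and at 0 UMIs in the labelled day 0 one, and AK4, a mitochondrial adenylate kinase, at 6.74, 138.2 and 4.85 CPM. With 3 libraries, many genes share such a pattern, and the distance is a description only.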

How the data were processed

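The authors deposited 3 sparse matrices, 1 per library, of raw counts by gene symbol and cell barcode. These were read as UMIs, since inDrop uses them per the labels. STAR and the build hg38 appear, without version, per the submitters' processing notes. Annotation, strand and barcode filter: not given in the sources used here.

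Cells with at least 1000 UMIs, 500 genes and at most 25% mitochondrial UMIs were kept. UMIs of a gene were summed over kept cells and given per 1000000 (CPM); 3 UMIs correspond to 0.106, 0.145 and 0.0727 CPM. Intervals (scipy 1.17.1) were exact Poisson for levels, exact conditional binomial for ratios, exact conditional for the ratio of ratios and Clopper-Pearson for shares. No test or paired design was possible with 1 library per day. In simulated data the ratio intervals held the true value for 94.9%, 95.5% and 95.5% of 9359, 9549 and 9498 genes (labelled day 2 over 0, 6 over 2, 6 over 0). The simulated counts were Poisson sums per library without variation between cells, which is what the intervals assume. They check the calculation and not whether the real counts vary in this way. Doublets were kept. Clusters came from scanpy 1.11.5 and igraph 0.11.9 (2000 variable genes, 30 components, 15 neighbours, Leiden resolution 0.5); edgeR 4.0.16 gave TMM factors.

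The members and all lists (203 of 204 entries found, SOX10 not matched) were chosen with earlier results of these data known. Besides the members, the text names, per list and comparison, up to 3 genes in each direction with the interval bound nearest to 1 past 2-fold, and the 5 genes nearest in pattern to CDKN1A and PMAIP1. Further genes (MCL1, MDM4, CDKN1B and CDKN2A to CDKN2C, FASLG, ATF4, and the 34 genes of the division by CDKN1A) were named after their values were seen. Alternatives were other cell filters, scalings, minimum levels and doublet limits; cells of 3000 to 8000 UMIs were added after seeing the data.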

Additional observations from a re-analysis of the deposited data

Results flagged for a closer look

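Barcodes over 25% mitochondrial UMIs (528, 1110 and 990 in label order, day 0, day 2 and day 6) stayed outside all comparisons, yet carried both genes above the level of 3 UMIs. CDKN1A was at 59.3, 4.64 and 5.04 CPM in them, close to the kept cells of each library. PMAIP1 was at 8.73, 150.1 and 5.33 CPM, or 0.572 times the kept cells in labelled day 2 (0.538 to 0.608) and 0.542 times in labelled day 6 (0.374 to 0.763). AEN (0.556), SESN1 (0.567), BAX (0.591) and GADD45A (0.637) were lower in labelled day 2 as well. Intervals of the other members there included 1. The totals included mitochondrial UMIs, so a high mitochondrial share by itself lowers the CPM of other genes. The contrast between the libraries was present in these barcodes as well.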

How the results depend on the processing

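No paired analysis was possible because each labelled day has 1 library, and for the same reason no replicate could be left out. Of the counts of members under the alternatives, 86 stayed within 1.5 times the reported count and 4 moved. Ratios of single members were less stable: 296 were classed as the same, 62 as moved and 2 as reversed. Only some of the moved ratios are named below. Members at least 2-fold higher in labelled day 2 over day 0 became 2 with a mitochondrial limit of 10% and also with cells of 3000 to 8000 UMIs, where AEN passed 2-fold. Members at most 0.5 times as high in labelled day 6 over day 2 became 1 with a minimum of 50 CPM, where PHLDA3 was not measured, and 1 in cells of at least 5% mitochondrial UMIs, where PHLDA3, at 0.459, was below 10 CPM in both libraries. The CDKN1A to PMAIP1 ratio for labelled day 2 over day 0 (0.00284) was 0.00540 with the 10% limit, 0.00209 in cells of at least 5% mitochondrial UMIs, 0.00423 in cells of 3000 to 8000 UMIs and 0.00361 from the mean of each cell's CPM; for labelled day 6 over day 2 (24.97) it was 13.2 and 34.2 under the first 2. The ratios of PHLDA3 for labelled day 2 over day 0 (0.956 in cells of at least 5% mitochondrial UMIs) and BBC3 for labelled day 6 over day 0 (1.14 in cells of 3000 to 8000 UMIs) changed direction from an interval that left out 1. BBC3 for labelled day 2 over day 0 (0.954) was 1.13 with the 10% limit, 1.06 without the highest 5% of UMIs, 1.30 in cells of 3000 to 8000 UMIs and 1.22 from the mean of each cell's CPM. CDKN1A for labelled day 2 over day 0 was 0.123 with the 10% limit and 0.124 in cells of 3000 to 8000 UMIs, for labelled day 6 over day 0 it was 0.112 in the latter, and for labelled day 6 over day 2 it was 0.580 with the 10% limit. FAS for labelled day 6 over day 2 was 1.03 from the mean of each cell's CPM. In cells of 3000 to 8000 UMIs, labelled day 2 over day 0 was 1.58 for BAX and 0.706 for MDM2. Over all kept cells these ratios were 1.22 and 0.916. The cause of these differences was not tested. Over all genes, those at most 0.5 times as high in labelled day 2 over day 0 numbered 1035, 1623 with the 10% limit and 1534 in cells of 3000 to 8000 UMIs, and those at least 2-fold higher in labelled day 6 over day 2 numbered 845 and 1300 with the 10% limit. Depth limits FAS, PHLDA3 and the low libraries of CDKN1A and PMAIP1 most.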

Other observations

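In the labelled day 0 library, 34 of 9139 genes reached 2-fold in the 116 cells with a CDKN1A UMI after thinning, and 16 of them were in the 2 lists of p53 targets. The other 18, picked out after their values were seen, were led by RP11-115D19.1 (106.8 against 30.3 CPM) and NEAT1, a long RNA that builds paraspeckles (81.7 against 23.9 CPM, 3.41-fold, 2.81 to 4.12). They also held the receptor kinase EPHA2 (82.9 against 35.6 CPM), the annexin ANXA1 (31.9 against 13.8 CPM) and the muscle genes ACTC1 (103.8 against 47.3 CPM) and TNNT2 (27.0 against 13.03 CPM). The neural progenitor marker HES5, a Notch target, was at 8.60 against 34.1 CPM in the same cells, and PAX6 at 109.3 against 179.5 CPM. Not all such markers were lower there, since FEZF1 was at 178 against 159 CPM and LHX5 at 55.3 against 52.1 CPM.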
